A study of Mus musculus with 21 samples.

Results

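Cathepsins are the proteases that break down proteins inside lysosomes. The 10 mouse genes described here are Ctsa, Ctsb, Ctsc, Ctsd, Ctse, Ctsh, Ctsk, Ctsl, Ctss and Ctsz. They were chosen by name and matched on the first gene symbol of each entry, 10 of 50645 genes in one table of bone marrow-derived macrophages and 10 of 50644 in the other. All cells came from C57Bl6/J mice with a stated donor age of 24 weeks, and bone marrow was grown into macrophages for 7 days in RPMI-1640 with L929 cell supernatant, a source of the growth factor M-CSF. The fatty acid table holds 4 groups of 3 libraries, all from donors on standard chow. These are untreated cells, cells given 100 ng/ml LPS for 24 h, cells given 10 mM fatty acid (palmitic to oleic acid 1:3) over the first 4 days of culture and LPS later, and cells given 200 nM TAK242 together with the fatty acid and LPS later. The Western diet table holds 3 groups of 3 libraries, namely untreated cells from chow donors (replicates 4 to 6) and cells from donors kept for 24 weeks on a diet high in fat, sugar and cholesterol, labelled without and with LPS. Donor age and time on this diet are both stated as 24 weeks and are repeated here as given. LPS is a bacterial lipid sensed by the receptor TLR4, and TAK242 is a small molecule that blocks TLR4 signalling. No group had fatty acid without LPS, and none had TAK242 without fatty acid.

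The family covers 3 kinds of active site. Ctsd and Ctse are aspartic proteases, Ctsa is a serine carboxypeptidase, and the others are cysteine proteases. They are made as inactive precursors, carried to lysosomes largely by mannose 6-phosphate receptors and activated there at acid pH. In macrophages they degrade engulfed material, and cathepsin S also trims the invariant chain so that MHC class II can be loaded with peptide.

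Library sums lay between 321532 and 386023 deposited values, a normalized unit that is not named, so read depth is unknown and no counting error can be given. Values below are these deposited values, and a change is a difference of mean log2(value + 1) with its standard error (SE), tested with limma and called at a Benjamini-Hochberg adjusted p under 0.05 over all genes tested. The labels do not say whether replicates are separate animals or cultures, so p-values measure only the spread between these libraries. The sum of 8 macrophage markers lay between 8741 and 10788 in every library of the fatty acid table and between 5847 and 15418 in the Western diet table. Lyz2 was its largest part (5309 to 8720 in the fatty acid table), so the sum mostly shows that gene. Single markers of that table were not steady. With LPS alone 5 of the 8 were called higher, against 13.8% of all genes, and 1 lower, against 47.9%. Adgre1 went from 345 to 367 in untreated cells to 1048 to 1439 with LPS alone. Cd68 went from 1158 to 1221 down to 511 to 576. In untreated cells of that table Cd14 (7.21 to 7.79) and Fcgr1 (10.5 to 11.1) were low. The markers of dendritic cells and of lymphocytes, 6 each, were all below the expression filter. Ccl5, a chemokine induced by LPS, was at most 0.645 in untreated cells of the fatty acid table and at least 3102 in every library given LPS. Of the Western diet libraries, 4 went against their label by Ccl5, namely replicates 1 and 3 labelled without LPS (7846 and 10973) and replicates 1 and 2 labelled with LPS (0.463 and 10.5). These are bulk libraries, in which fewer cells of a type and less RNA per cell cannot be told apart.

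Ctsd was the highest of the 10 genes in untreated chow cells of the fatty acid table, at 7636 ± 47.2 (SD, n = 3). Ctsb (2736 ± 124.7) and Ctss (1752 ± 98.3) followed, then Ctsl (789 ± 34.5), Ctsa (555 ± 20.3) and Ctsz (499.9 ± 24.4). Ctsh was at 130.9 ± 23.6 and Ctsc at 67.4 ± 0.705. Ctse (6.24 ± 0.891) and Ctsk (3.62 ± 0.339) were the lowest. Low deposited values step with gene length as values per length do, but the unit is not stated, so this order is a description. Together the 10 genes took 3.91% ± 0.0442 of the library sum in untreated cells, 2.57% ± 0.437 with LPS alone, 3.40% ± 0.0579 with fatty acid then LPS and 2.95% ± 0.230 with TAK242 added (n = 3 each). Ctsd made up 53.9% ± 0.705 of the cathepsin total in untreated cells and 40.9% ± 1.40 with LPS alone.

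**Figure D1:**
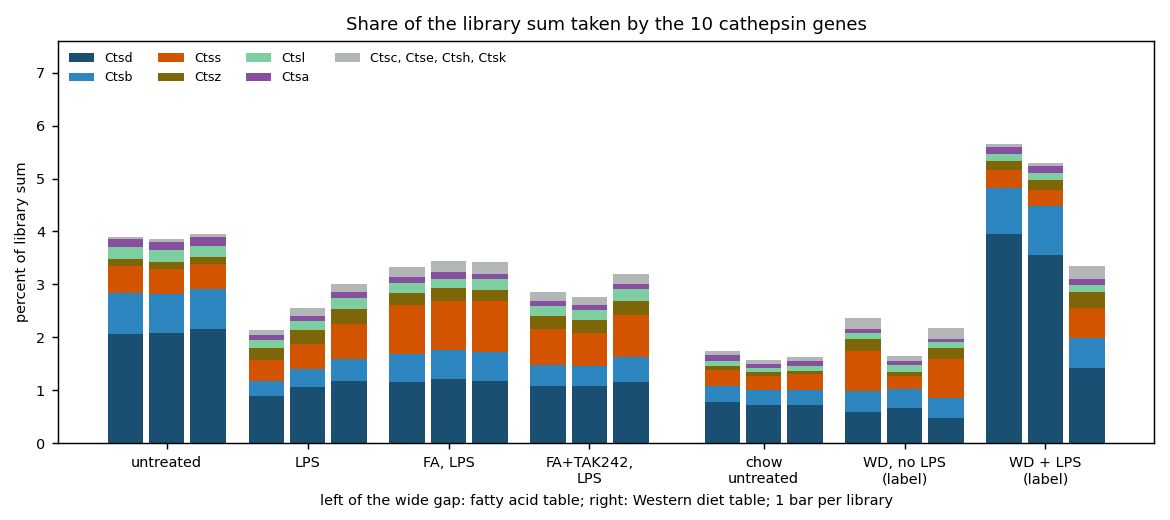
Share of the library sum (percent, vertical axis) taken by the 10 cathepsin genes, 1 stacked bar per library, with the fatty acid table left of the wide gap and the Western diet table right of it. In the fatty acid table the share was 3.87% to 3.95% in untreated cells and 2.14% to 3.01% with LPS alone. In the Western diet table it was 1.58% to 1.75% in untreated chow cells and highest (5.65% and 5.30%) in replicates 1 and 2 labelled Western diet with LPS, where Ctsd was the largest segment.

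Promoter sequences are printed for 4 genes, because Ctsd and Ctsa were lower in all LPS-treated groups of the fatty acid table while Ctsc and Ctss were highest with fatty acid then LPS. RefSeq sequences (GRCm38.p6), 250 bases before to 50 bases after a start site, matched 7 of the 10 genes. Capitals mark 4 motifs searched on both strands, CACGTG (the E-box core), TCACGTGA (the inner part of CLEAR, the element of many lysosomal genes, which contains CACGTG), GAAANNGAA (a core of interferon response elements) and GAGGAAGT (bound by the macrophage factor PU.1). The lines are Ctsd (chr7:142387778-142388077, minus strand), the second annotated start of Ctsa (chr2:164833523-164833822, plus strand), Ctsc (chr7:88277835-88278134, plus strand) and Ctss (chr3:95526536-95526835, plus strand).
Ctsd: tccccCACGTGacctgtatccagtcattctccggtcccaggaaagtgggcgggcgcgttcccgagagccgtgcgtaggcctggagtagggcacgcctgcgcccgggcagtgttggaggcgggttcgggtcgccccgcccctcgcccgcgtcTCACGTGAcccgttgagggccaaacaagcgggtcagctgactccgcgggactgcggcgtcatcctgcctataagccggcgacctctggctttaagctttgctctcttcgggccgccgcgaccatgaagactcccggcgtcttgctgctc
Ctsa: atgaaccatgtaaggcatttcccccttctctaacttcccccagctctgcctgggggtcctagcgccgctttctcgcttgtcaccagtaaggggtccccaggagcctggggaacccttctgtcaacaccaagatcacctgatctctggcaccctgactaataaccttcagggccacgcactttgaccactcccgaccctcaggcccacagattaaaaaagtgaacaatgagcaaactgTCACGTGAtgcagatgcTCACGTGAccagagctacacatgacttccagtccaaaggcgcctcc
Ctsc: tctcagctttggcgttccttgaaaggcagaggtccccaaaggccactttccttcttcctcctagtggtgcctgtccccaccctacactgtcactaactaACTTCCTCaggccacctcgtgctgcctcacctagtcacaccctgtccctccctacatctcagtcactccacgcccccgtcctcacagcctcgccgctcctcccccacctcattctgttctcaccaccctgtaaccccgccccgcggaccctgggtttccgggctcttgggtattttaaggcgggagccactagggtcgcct
Ctss: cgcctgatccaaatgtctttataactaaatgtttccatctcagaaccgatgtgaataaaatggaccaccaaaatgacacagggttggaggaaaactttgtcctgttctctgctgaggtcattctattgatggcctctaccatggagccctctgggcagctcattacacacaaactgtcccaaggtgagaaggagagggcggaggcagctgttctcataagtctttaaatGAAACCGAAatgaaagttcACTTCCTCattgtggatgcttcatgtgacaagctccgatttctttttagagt
CACGTG occurred at 2 places in Ctsd, at 2 in this Ctsa start and at 1 in Ctsl, while the first annotated start of Ctsa (chr2:164832622-164832921, plus strand) held none of the motifs. Of 32851 promoters of the same length, 7.15% hold CACGTG. TCACGTGA occurred at 1 of the places in Ctsd and at both in Ctsa (0.974% of promoters), while the full CLEAR consensus was in none of the windows of the 7 genes and in 0.326% of all promoters. GAAANNGAA occurred in Ctss (8.56% of promoters), and GAGGAAGT in Ctsc and Ctss on the opposite strand (3.20%). The motifs were chosen after the values were seen. These are matches of letters only, and the libraries hold no measurement of binding.

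**Figure D2:**
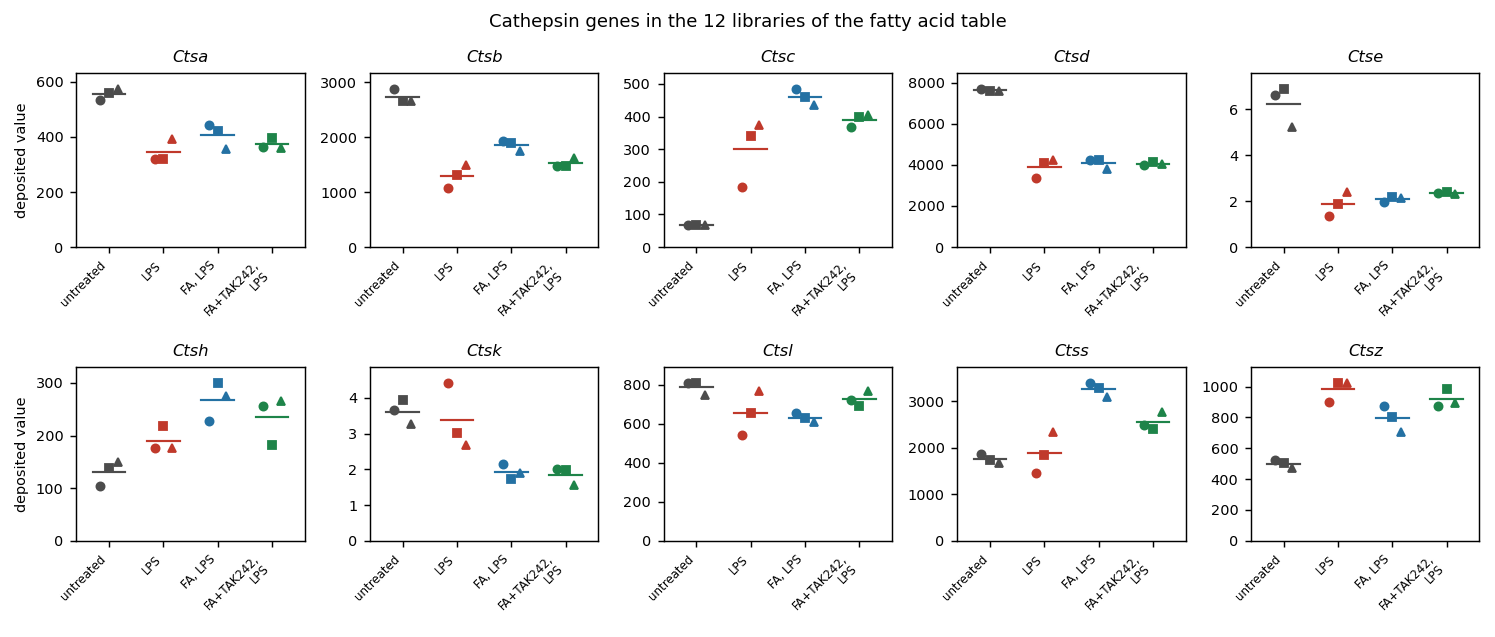
Deposited values (vertical axes, from 0) of the 10 cathepsin genes in the 12 libraries of the fatty acid table, 1 panel per gene, with circles, squares and triangles for replicates 1, 2 and 3 and a line at each group mean. Ctsd, Ctsb, Ctsa and Ctse sit lower in every library given LPS than in the untreated libraries, Ctsc and Ctsz sit higher, and Ctss is highest with fatty acid then LPS (3091 to 3391).

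The first comparison asks what LPS did to the cathepsin genes of chow macrophages. Ctsc, Ctsz and Ctsh rose, Ctse, Ctsb, Ctsd and Ctsa fell, and Ctsl, Ctsk and Ctss did not pass the test. So 3 of 10 were higher, against 13.8% of all 10476 genes tested, and 4 of 10 lower, against 47.9% of all genes. The median change of the 10 was -0.19, and that of all genes was -0.31. Markers of other cells moved as well. The sum of 8 stromal markers was 10.5 to 22.2 in untreated cells and 31.9 to 70.0 with LPS, with all 6 tested genes higher. The sum of 8 neutrophil markers was 35.1 to 51.9 and then 119.9 to 384, with 2 of 5 tested genes higher. Among them S100a8 was at 18.0 to 23.5 and then 78.1 to 372. Camp was at 0.554 to 0.854 and then 2.65 to 5.09. The ranges of S100a9 (10.7 to 19.1, then 5.69 to 43.5), Ltf and Ngp overlapped. Retnlg, below the filter, was at 0.201 to 0.526 and then at 0 in every library with LPS alone. The listed neutrophil markers thus did not rise together. Of 8 osteoclast markers 3 were tested, and Acp5 (1.04 to 1.52, then 73.5 to 111.2) and Mmp9 rose while Atp6v0d2 (18.7 to 24.4, then 0.473 to 0.692) fell. Their part in the cathepsin values was not tested. Rescaling each library by the median ratio of its genes moved the median of all genes to 0.01 and changed the calls over all genes (1444 higher, 5019 lower) to 2847 higher and 2822 lower. After rescaling, all 7 called cathepsin genes were still called in the same direction and Ctss was also called as higher (0.46, limma adjusted p = 0.0186), while Ctsl and Ctsk turned from negative to 0.10 and 0.20 without a call.

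Of the aspartic proteases, Ctsd is the main lysosomal one of most cells. It lies on chromosome 7 (142375911 to 142388038, minus strand, GRCm38). Its values were 7689.6, 7603 and 7615 in untreated cells, 3345, 4071 and 4259 with LPS alone, 4225, 4227 and 3795 with fatty acid then LPS, and 4011, 4154 and 4025 with TAK242 added. The untreated libraries lay far above the other 9, whose 3 groups overlapped. With LPS alone Ctsd was at 0.510 times its untreated level (log2 change -0.98, SE 0.10, limma adjusted p = 1.19e-05). The annotation has a second gene on the same strand, Gm49369, that shares exons with Ctsd. It was at 1.41 to 1.53 times Ctsd in every library of both tables, so reads of these genes cannot be told apart. Ctse (chromosome 1, 131638306 to 131675505, plus strand), an aspartic protease of endosomes with a narrower tissue range, had values of 6.63, 6.87 and 5.22 in untreated cells, 1.34, 1.86 and 2.41 with LPS, 1.96, 2.16 and 2.13 with fatty acid then LPS, and 2.37, 2.38 and 2.31 with TAK242 added. Here too the untreated libraries stood above all others. Its change with LPS was -1.34 (SE 0.13, limma adjusted p = 6.54e-06).

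Ctsa (chromosome 2, 164832873 to 164841032, plus strand) encodes cathepsin A, a serine carboxypeptidase that also protects the lysosomal enzymes beta-galactosidase and neuraminidase 1 in a complex. It was at 534, 558 and 574 in untreated cells, 320.0, 320.2 and 394 with LPS, 442, 421 and 356 with fatty acid then LPS, and 362, 397 and 359 with TAK242 added. Every library given LPS was below every untreated one, and the 3 LPS-treated groups overlapped. The change with LPS alone was -0.69 (SE 0.11, limma adjusted p = 0.000221). Exons of Ctsa overlap those of Pltp and Neurl2 on the other strand. Pltp, a phospholipid transfer protein, was at most 107.2 in this table, and whether the counting used strand is not given in the sources used here.

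Ctsb (chromosome 14, 63122462 to 63145919, plus strand), a cysteine endopeptidase that also removes dipeptides from protein ends, was at 2880.25, 2664 and 2664 in untreated cells, 1070.4, 1320.5 and 1500.4 with LPS, 1929.6, 1891 and 1744 with fatty acid then LPS, and 1476, 1485 and 1614 with TAK242 added. The untreated libraries were highest, those with fatty acid then LPS came next without overlap, and the LPS and TAK242 groups overlapped. With LPS alone Ctsb was at 0.474 times its untreated level (-1.09, SE 0.12, limma adjusted p = 1.41e-05). Fdft1, a gene of cholesterol synthesis on the other strand that shares exonic sequence with it, was at most 559.98 in this table.

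Ctsl (chromosome 13, 64363214 to 64370306, minus strand), a broad lysosomal endopeptidase, was at 810.3, 808 and 749.6 in untreated cells, 542, 655 and 767 with LPS, 656, 628 and 612 with fatty acid then LPS, and 724, 692 and 770.0 with TAK242 added. The LPS libraries overlapped both the untreated and the fatty acid ones. Its change with LPS was -0.28 (SE 0.12, limma adjusted p = 0.0524), and without LPS replicate 3 it was -0.40 with an adjusted p of 0.00619. The annotation lists a processed pseudogene and an antisense transcript that overlap its exons.

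Ctss (chromosome 3, 95526786 to 95556403, plus strand), the endopeptidase of the class II pathway, was at 1859, 1731 and 1666 in untreated cells, 1451, 1845 and 2342 with LPS, 3391, 3287 and 3091 with fatty acid then LPS, and 2475, 2390.3 and 2759 with TAK242 added. The LPS libraries lay on both sides of the untreated ones (0.08, SE 0.15, limma adjusted p = 0.682), and the groups with fatty acid stood above both without overlap. Ctsk (chromosome 3, 95499256 to 95509362, plus strand), next to Ctss and known for breaking down bone collagen in osteoclasts, was at 3.66, 3.93 and 3.26 in untreated cells, 4.42, 3.01 and 2.68 with LPS, 2.16, 1.73 and 1.90 with fatty acid then LPS, and 2.01, 1.98 and 1.58 with TAK242 added. The untreated and LPS libraries overlapped (-0.10, SE 0.14, limma adjusted p = 0.565).

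Of the cysteine proteases that act on chain ends, Ctsc had the largest change with LPS of the 10 genes. Ctsc (chromosome 7, 88278085 to 88310888, plus strand) is dipeptidyl peptidase I, which activates serine protease precursors of granules. It was at 66.9, 68.2 and 67.2 in untreated cells, 183.7, 341 and 375 with LPS, 484, 461 and 434 with fatty acid then LPS, and 367, 399 and 404 with TAK242 added. All 9 LPS-treated libraries were above the untreated ones, and with LPS alone the mean was 4.45 times higher (2.07, SE 0.21, limma adjusted p = 7.86e-06). LPS replicate 1 was the lowest of its group for 9 of the 10 cathepsin genes and the highest for Ctsk. For Ctsa (319.99 against 320.2) and Ctsh (176.87 against 176.96) it was nearly tied with the next library. Over all genes tested, replicate 1 also differed most within its group. Its median absolute log2 difference was 0.196 from replicate 2 and 0.242 from replicate 3, against 0.128 between those. In that library the sum of 8 neutrophil markers was 384, against 171 and 119.9 in the others of the group. S100a8 alone gave 371.9 of the 384, while the highest S100a9 of the group (43.5) lay in another library. The sum of 8 stromal markers was 69.96, against 40.0 and 31.9. The part of such cells in these differences was not tested. The 5 precursors that cathepsin C is known to activate and that were listed here, Elane, Prtn3, Mpo, Gzma and Gzmb, were all below the filter, with no value above 0.719.

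Ctsz (chromosome 2, 174427493 to 174439039, minus strand), a carboxypeptidase, was at 522, 505 and 474 in untreated cells, 899.8, 1019.8 and 1024 with LPS, 876, 805 and 707 with fatty acid then LPS, and 871, 985 and 894 with TAK242 added. All LPS-treated libraries were above the untreated ones, and those with LPS alone were the highest as a group (0.97, SE 0.10, limma adjusted p = 9.88e-06). Its exons overlap those of Nelfcd on the other strand, a subunit of a transcription pausing complex, which was at most 376 in this table. Nelfcd was at 78.3, 156 and 179 in untreated cells and at 314, 233 and 376 with LPS alone, the same direction as Ctsz. Whether its reads entered the Ctsz values was not tested. Ctsh (chromosome 9, 90054152 to 90076089, plus strand), an aminopeptidase, was at 104, 138 and 149.9 in untreated cells, 176.9, 218 and 177 with LPS, 227, 300.2 and 274 with fatty acid then LPS, and 255, 182 and 266 with TAK242 added. The LPS libraries were all above the untreated ones (0.55, SE 0.18, limma adjusted p = 0.0213). The call for Ctsh was lost without untreated replicate 1 (adjusted p = 0.0870) and without LPS replicate 2 (adjusted p = 0.0802), and also without the filter on low values (adjusted p = 0.0524).

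**Figure D3:**
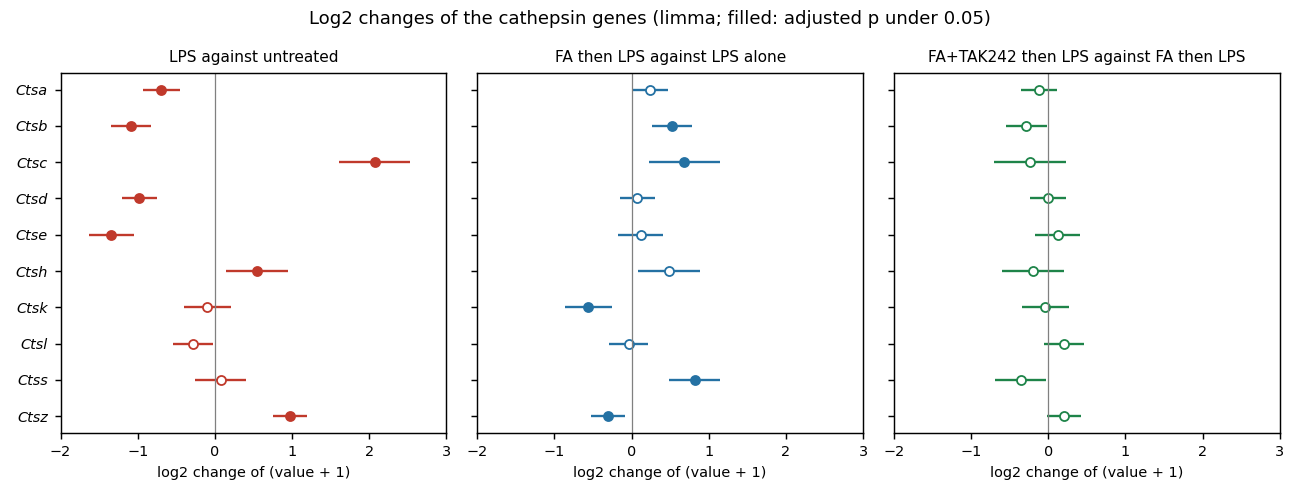
Log2 changes of the 10 cathepsin genes (horizontal axis, on the log2(value + 1) scale) in 3 comparisons, with 95% intervals as bars, filled circles for a limma adjusted p under 0.05 and open circles for the others. With LPS 7 circles are filled, with fatty acid before LPS 5, and with TAK242 added none.

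The second comparison asks whether fatty acid given early in culture changed the later LPS-treated state. Ctss, Ctsc and Ctsb rose, and Ctsk and Ctsz fell. So 3 of 10 were higher, against 21.8% of all genes, and 2 of 10 lower, against 15.3%. Ctss, with a mean 1.73 times that of LPS alone, had the largest change (0.82, SE 0.15, limma adjusted p = 0.00251). Ctsc was 1.53 times higher (0.68, SE 0.21, limma adjusted p = 0.0259) and Ctsb 1.43 times higher (0.53, SE 0.12, limma adjusted p = 0.00635). Ctsk was at 0.572 times its level with LPS alone (-0.56, SE 0.14, limma adjusted p = 0.0100), with no overlap between the groups. Ctsz fell by 0.30 on the log2 scale (SE 0.10, limma adjusted p = 0.0354), also with no overlap.

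Of the other 5 genes, Ctsh (0.48, limma adjusted p = 0.0564) and Ctsa (0.24, 0.106) had positive changes, and Ctse, Ctsd and Ctsl lay between -0.04 and 0.12. Beside the Ctsk values, the sum of 8 stromal markers was 31.9 to 70.0 with LPS alone and 13.2 to 17.2 with fatty acid then LPS, and 5 of its 6 tested genes fell. Of the 8 osteoclast markers, Calcr, Ocstamp, Oscar, Dcstamp and Itgb3 were below the filter. Acp5 (73.5 to 111.2 with LPS alone, 49.4 to 55.2 with fatty acid) and Mmp9 (3.91 to 25.7, then 1.05 to 1.49) fell, and Atp6v0d2 (0.473 to 0.692, then 0.871 to 1.08) rose. The part of such cells in the Ctsk values was not tested. The calls for Ctsc and Ctsz were lost when a single library was left out, with an adjusted p of up to 0.0709 for Ctsc (each fatty acid library in turn) and up to 0.126 for Ctsz (LPS replicates 2 and 3, fatty acid replicates 2 and 3). Ctsa was called without LPS replicate 3 or fatty acid replicate 3, and Ctsh without fatty acid replicate 1 (adjusted p = 0.0267, 0.0455 and 0.0445).

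Against untreated cells, which these libraries share with the first comparison, fatty acid then LPS differed in all 10 genes. Higher were 4 of 10, against 15.2% of all genes, and lower were 6 of 10, against 44.9%. Ctsc was 6.82 times higher (2.75, SE 0.21, limma adjusted p = 8.56e-07), Ctsh 2.04 times (1.03, SE 0.18), Ctss 1.86 times (0.89, SE 0.15) and Ctsz 1.59 times (0.67, SE 0.10). The lower genes were Ctse (-1.22), Ctsd (-0.91), Ctsk (-0.66), Ctsb (-0.56), Ctsa (-0.45) and Ctsl (-0.32). After median-ratio rescaling, which moved the median of all genes from -0.26 to 0.000974 and changed the calls over all genes (1591 higher, 4704 lower) to 2858 and 3052, Ctsb (-0.24), Ctsa (-0.13) and Ctsl (0.00124, of opposite sign) were no longer called. The call for Ctsl was also lost without untreated replicates 1 or 2, or fatty acid replicates 2 or 3 (adjusted p = 0.0762 to 0.0869).

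The third comparison asks what TAK242, present together with the fatty acid, did to these values. None of the 10 genes passed the limma test, against 3.01% of all genes called higher and 1.68% called lower. At an unadjusted limma p under 0.05 there were 2 of 10, against 2415 of all 10476 genes. These were Ctsb (-0.28, 95% interval -0.54 to -0.02) and Ctss (-0.36, 95% interval -0.69 to -0.03). The Ctss libraries with TAK242 (2390.3 to 2759) lay between those with LPS alone and those with fatty acid then LPS, without overlap with either. The Ctsc (367 to 404) and Ctsb (1476 to 1614) libraries lay below those with fatty acid then LPS. For Ctse they lay above (2.31 to 2.38, against 1.96 to 2.16). How many of all genes separate in this way was not counted. For Ctsd the change was close to 0, with a 95% interval of -0.23 to 0.22. The intervals of the other genes spanned 0 and reached from -0.70 (Ctsc) to 0.46 (Ctsl).

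Against LPS alone, the group with fatty acid and TAK242 was lower in 1 of 10 genes, Ctsk (-0.60, SE 0.14, limma adjusted p = 0.0384), against 1.84% of all genes called lower and 4.05% called higher. Ctss was at 0.46 (SE 0.15, limma adjusted p = 0.0812) and passed without LPS replicate 3 (0.63, adjusted p = 0.0125). Ctsk kept its call in that fit and lost it when any other of the 6 libraries was left out, with adjusted p-values of 0.0631 to 0.140. Median-ratio rescaling turned the 424 higher and 193 lower calls over all genes into 453 and 558.

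The Western diet table gave values that followed the LPS label for some cathepsin genes and Ccl5 for others. Untreated chow cells had Ctse values of 10.0, 8.59 and 8.62. Ctse was listed at 0 in Western diet replicate 1 without LPS by label and was at 0.0301 and 0.0370 in replicates 2 and 3, against 23.4, 39.4 and 8.87 with LPS by label. It was thus near 0 in all 3 libraries labelled without LPS, whatever their Ccl5. Of 5 tested neutrophil markers, S100a9, Ltf and Ngp were also lowest in these libraries, without overlap, while S100a8 and Camp overlapped. S100a9 was at 15.7 to 24.8 in chow cells, 3.32 to 10.7 without LPS by label and 20.4 to 25.9 with LPS by label. For Ltf the ranges were 2.20 to 3.93, 0.0903 to 0.609 and 2.33 to 3.38. The part of such cells in the Ctse values was not tested. Ctse fell between chow and Western diet without LPS (-3.30, SE 0.44, limma adjusted p = 0.0305) and rose between Western diet without and with LPS (4.38, SE 0.44, limma adjusted p = 0.00485). In the first of these comparisons 1 of the 9 tested genes was lower, against 0.165% of all 10331 genes, and none was higher, against 0.0678%. In the second 1 of 9 was higher, against 0.678%, and none lower, against 0.281%. Ctsk was below the filter here, with values between 0.160 and 0.789.

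**Figure D4:**
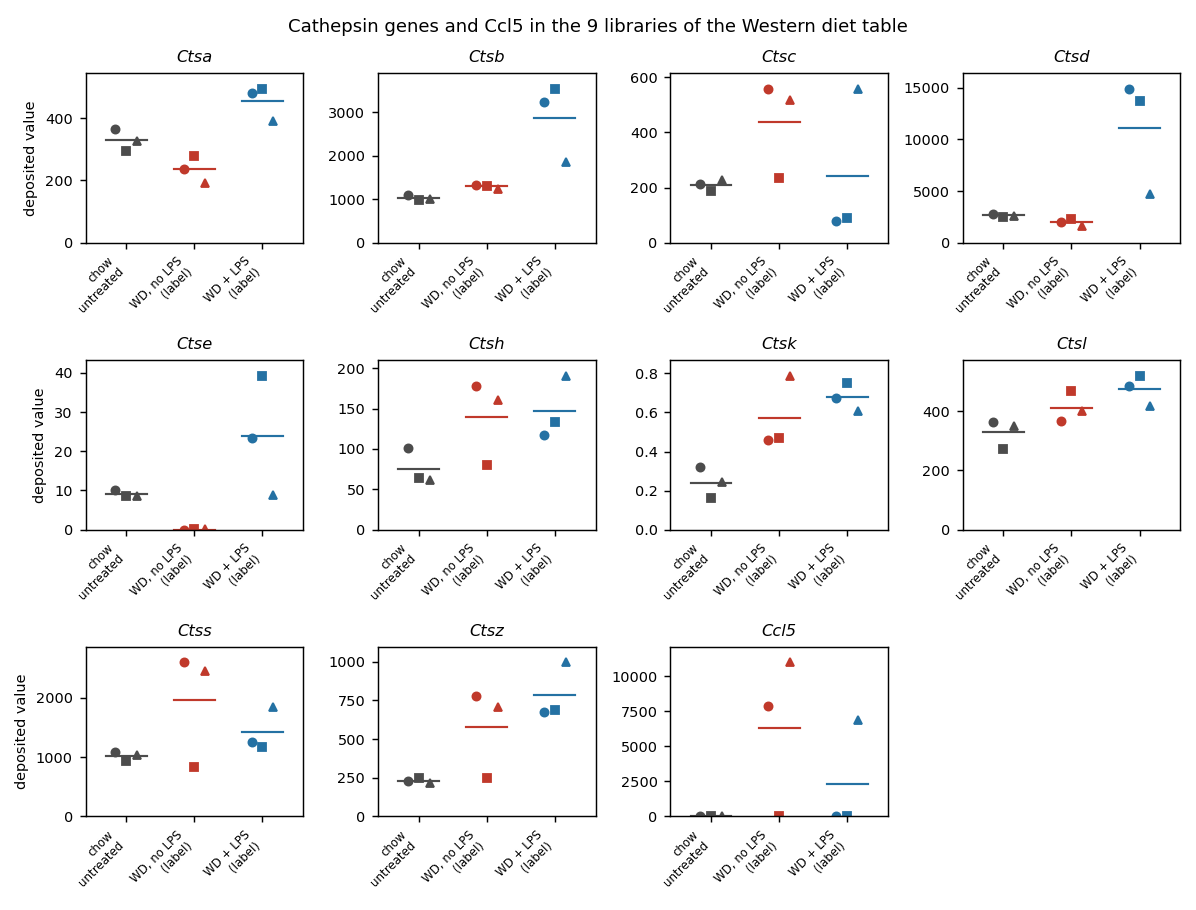
Deposited values (vertical axes, from 0) of the 10 cathepsin genes and Ccl5 in the 9 libraries of the Western diet table, with circles, squares and triangles for the replicates of a group in order of their number and a line at each group mean. Among the Western diet donors Ctse separates by the LPS label, with the chow libraries (8.59 to 10.0) overlapping those labelled with LPS, whereas the libraries with the highest Ctsc (518 to 558) are the 3 with the highest Ccl5, of which 2 are labelled without LPS.

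Ctsd and Ctsb were highest in replicates 1 and 2 labelled Western diet with LPS. Ctsd was at 2782, 2517 and 2623 in chow cells, 2050.4, 2339 and 1612 in Western diet libraries labelled as having no LPS, and 14917, 13709 and 4677 in those labelled with LPS. Ctsb was at 1088, 975 and 1002, then 1337, 1307 and 1242, then 3231, 3549 and 1851. Both genes were higher in every library labelled with LPS than in every one labelled without, yet neither passed the limma test (Ctsd 2.32, SE 0.46, adjusted p = 0.0622, and Ctsb 1.10, SE 0.29, adjusted p = 0.126). Ctsa had values of 365, 293 and 326 in chow cells. It was at 238, 279 and 190.6 where the label gives no LPS, and at 481, 494 and 390.1 where it gives LPS (0.96, limma adjusted p = 0.0946). These 3 genes had negative changes with LPS in the fatty acid table. Within a label the order by Ccl5 differed from the order by label. Among the libraries labelled with LPS, replicate 3, the one with high Ccl5, was the lowest for all 3 genes. Among those labelled without LPS, the high-Ccl5 replicates 1 and 3 were below replicate 2 for Ctsd and Ctsa. For Ctsb they lay on both sides of it. The cause was not tested. The 4 libraries at odds with Ccl5 include both libraries with the highest Ctsd. Fdft1, which shares exonic sequence with Ctsb on the other strand, was at 630, 695 and 343 in the libraries labelled with LPS. It was at 241, 270 and 236 in those labelled without LPS and at 208, 324 and 329 in chow cells. Whether its reads entered the Ctsb values was not tested.

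Ctsc, Ctss, Ctsz and Ctsh were instead highest in the 3 libraries with high Ccl5. Ctsc was at 214, 187.8 and 226 in chow cells, 558, 234 and 518 in Western diet cells labelled untreated, and 78.8, 90.2 and 556 in those labelled LPS-treated. Ctss was at 1088, 943 and 1035, then 2601, 839 and 2459.8, then 1254, 1167 and 1848. Ctsz was at 229.8, 246 and 218, then 779.9, 246 and 708, then 676, 686 and 996. For this gene the low-Ccl5 libraries labelled with LPS (676 and 686) were close to the lowest high-Ccl5 library (708) and far above all chow values. Replicate 2 labelled without LPS was near the chow values for Ctsc, Ctss and Ctsz, while replicates 1 and 3 of that group were well above them. The groups labelled without and with LPS overlapped for all 4 genes. Against chow, Ctss and Ctsh overlapped. The lowest Ctsc and Ctsz labelled without LPS (234.1 and 246.3) lay just above the highest chow values (225.7 and 245.9). None of the 4 genes passed the test in either comparison. Ctsh was at 101.1, 63.6 and 61.0 in chow cells, then 177.7, 79.7 and 161, then 116.6, 133.2 and 191. It too was highest in the 3 libraries with high Ccl5. Ctsl ranged from 274 to 365 in chow cells, from 365 to 469 without and from 418 to 521 with LPS by label.

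Without the 4 libraries whose Ccl5 went against their label, 1 library was left in each Western diet group, so the differences below are between single libraries, chosen after seeing the data, and are given as values. Ctse was -3.29 against chow and 3.26 between the library with LPS (replicate 3) and the one without (replicate 2). Between these same libraries the differences were 2.01 for Ctsz, 1.24 for Ctsc, 1.14 for Ctss, 1.00 for Ctsd, 0.50 for Ctsb and -0.17 for Ctsl. Ctsh and Ctsa were higher too, with deposited values of 79.7 and 278.8 in replicate 2 and 190.9 and 390.1 in replicate 3. With all libraries the log2 changes of Ctsc and Ctss were -1.36 and -0.33. A limma fit of this pair rests on the spread of the chow libraries alone, called 6 of 9 genes higher, against 8.35% of all genes called higher and 23.6% lower, and does not test the conditions. The Ctse call against chow was lost when any 1 of the chow libraries or of replicates 1 and 3 without LPS was left out (adjusted p = 0.147 to 0.208), with the change between -3.33 and -3.23. Without replicate 2 labelled without LPS, 3 of 9 genes were called higher and 2 lower against chow, where 12.1% and 44.4% of all genes were. By LPS label 4 were then higher and 1 lower, against 29.8% and 9.72% of all genes. Without replicate 3 labelled with LPS, 4 were higher and 1 lower by LPS label, against 5.04% and 2.19%. Fitted on only the 6 Western diet libraries, Ctse lost its second call (adjusted p = 0.102).

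Of 12 other cathepsin genes, 10 were below the filter and 2 passed, Ctso and Ctsf, which are named for that reason. Ctso, a little-studied lysosomal cysteine protease, was at 11.3 ± 0.278 in untreated cells, 6.14 ± 0.656 with LPS and 9.11 ± 0.170 with fatty acid then LPS (n = 3 each). It fell with LPS (-0.79, SE 0.09, limma adjusted p = 1.92e-05) and rose with fatty acid before LPS (0.51, SE 0.09, limma adjusted p = 0.00215).

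Inhibitors of cathepsins moved in both directions with LPS, with 4 of 10 tested genes higher, against 13.8% of all genes, and 4 lower, against 47.9% (median change 0.10, against -0.31 for all genes). Cst7, encoding cystatin F, which inhibits cathepsin C among others, went from 1.34 ± 0.206 in untreated cells to 26.1 ± 11.2 with LPS and 89.2 ± 5.94 with fatty acid then LPS, and was at 38.3 ± 6.24 with TAK242 added (n = 3 each). It rose with LPS (3.44, SE 0.27, limma adjusted p = 9.70e-07) and with fatty acid before LPS (1.83, SE 0.27, adjusted p = 0.000929), and it fell with TAK242 (-1.21, SE 0.27, adjusted p = 0.0339). Serpinb6a, a serpin, went from 414 ± 43.8 to 66.7 ± 9.45 with LPS and 121 ± 13.0 with fatty acid then LPS (-2.62 and 0.85, limma adjusted p = 2.12e-08 and 0.000926). Ctla2a, related to cathepsin propeptides, fell with LPS (-1.13, limma adjusted p = 3.19e-06). Its neighbour in name Ctla2b rose with LPS (0.98) and fell with fatty acid before LPS (-1.01, limma adjusted p = 0.000861), as did cystatin B, Cstb (0.42 and -0.43). Ctla2a and Ctla2b are close in sequence, so reads may be split between them.

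Of 9 genes for processing and complex partners, 6 fell with LPS, against 47.9% of all genes, and 1 rose, against 13.8% (median change -0.91, against -0.31). Lgmn, the asparaginyl endopeptidase that cuts several cathepsin precursors, went from 735 ± 34.3 to 256 ± 135.2 with LPS and was at 738 ± 6.81 with fatty acid then LPS (n = 3 each). It fell in the first comparison (-1.67, SE 0.32, limma adjusted p = 0.000891) and rose in the second (1.67, SE 0.32, limma adjusted p = 0.00300). Its LPS libraries were at 125, 248 and 395, all below the others. Glb1, the beta-galactosidase partner of cathepsin A, fell with LPS (-1.12, limma adjusted p = 4.26e-06), and Dpp7, a lysosomal dipeptidyl peptidase, was lower with fatty acid then LPS than in untreated cells (-1.56, limma adjusted p = 6.56e-06). Neu1, the neuraminidase partner, fell with fatty acid before LPS (-0.91, limma adjusted p = 0.000958) and rose with TAK242 (0.63, limma adjusted p = 0.0315). Psap, the precursor of the saposins, was the 1 gene of this list called in the Western diet table, higher with LPS by label (1.85, limma adjusted p = 0.0473).

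Of 12 sorting genes, 8 fell with LPS and none rose, against the same 47.9% and 13.8% of all genes (median change -0.44, against -0.31). Gnptg, a subunit of the enzyme that makes the mannose 6-phosphate tag, went from 22.3 ± 1.38 to 9.92 ± 0.475 (-1.09, limma adjusted p = 1.29e-06), and Gga2, a trans-Golgi adaptor, fell too (-1.13, limma adjusted p = 6.91e-06). Lrp1, a cell-surface receptor, rose with TAK242 against fatty acid then LPS (0.65, limma adjusted p = 0.0443) and against LPS alone (0.93, adjusted p = 0.0254), as did Gga1 in the former (0.40, adjusted p = 0.0373). M6pr, the cation-dependent mannose 6-phosphate receptor, was higher with fatty acid and TAK242 than with LPS alone (0.42, adjusted p = 0.0454). Of 6 regulators of lysosomal genes, 4 fell with LPS, again against 47.9% of all genes (median change -0.61, against -0.31), among them Tfeb, a master regulator of lysosome genes (-0.60, limma adjusted p = 0.0257, named after its values were seen). Mcoln1, a lysosomal calcium channel of this list, rose with TAK242 (0.38, limma adjusted p = 0.0346).

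The genes most alike to each cathepsin over the 12 libraries of the fatty acid table were taken by Pearson r of log2(value + 1). The 12 points share 4 groups and 1 normalization, so these r values are descriptions. Ctsc was most like Phf11b (0.999) and Ms4a4c (0.998), Ctsd like Sae1 (0.997) and Hadh (0.996), and Ctsb like Tcn2 (0.996) and Fcna (0.995). Ctss was most like Prpf38a (0.991) and Phyhd1 (0.979). Ctsz was most like Tapbp, a chaperone of MHC class I loading (0.988), and H2-Ab1, an MHC class II chain (0.986). Ctse was most like Rrm1 (0.987) and Rnh1 (0.984), and Ctsa like Pde6d (0.985) and Sugt1 (0.968). Ctsk was most like Dad1 (0.963) and Gsta3 (0.956), Ctsl like Hyi (0.934) and Slc38a7 (0.892), and Ctsh like Morc3 (0.918) and Ascc3 (0.907). Over 0.9 there were 531 genes for Ctsd, 298 for Ctsc and 1 for Ctsl.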

How the data were processed

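RNA sequencing of 21 libraries in 7 groups of 3 gave the 2 tables. Per the file headers, each column is a library, and the deposited value per gene has no named unit. The values are not whole, and their low steps scale with gene length as in a per-length normalization. The tools listed in the submitters' processing notes, without role or order, are HISAT2 2.0.5, Trim Galore 0.4.1, CASAVA 1.8.2 and FastQC 0.11.5, and the builds are mm10 and mm9. The counting step is not given in the sources used here. The 2 tables may have been normalized separately, so tests were made only within a table.

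Groups came from the sample titles. Entries whose numbers sit in annotation columns were left out (36 and 35), and 0 columns of per-sample values went unused. Genes at 1 or more in at least 3 libraries were kept (10476 and 10331), and log2(value + 1) was fitted per table with limma 3.58.1 (R 4.3.3) over all its libraries. No count model was used, because the values are not counts. Benjamini-Hochberg adjustment ran over all genes tested, with a threshold of 0.05. The fit was tested on simulated data. Coordinates are those of the files, which equal GENCODE M21 (GRCm38) except for Ctsb and Ctsl. Deviations of same-numbered libraries correlated at over 0.1 in 1 of 18 pairs of the fatty acid table (-0.0810 to 0.20). In the Western diet table they correlated at 0.68 and 0.76 for replicates 2 and 3 and at -0.67 for replicate 1, so the numbers were not used as pairs. Identical values made up at most 0.277% of those in any replicate pair. Alternatives were another scaling, pseudocount, filter and set of libraries, a replicate block and leaving out each library.

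The members and the lists were chosen with earlier results of these data known. Beside the members, list genes are named where they changed with a mean of at least 10 in the higher group, at most 6 per comparison by adjusted p. The most alike genes are the 2 with the highest Pearson r and a mean of at least 10. Python 3.11.15 with pandas 2.3.3, numpy 2.4.6, scipy 1.17.1 and matplotlib 3.10.9 was used for all other steps.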

Additional observations from a re-analysis of the deposited data

How the results depend on the processing

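Over all single-gene results of the 10 genes and their alternatives, 736 of 820 kept direction and call, 37 lost the call, 23 gained it and 24 changed sign. The values carry no depth, so low genes such as Ctse and Ctsk have no counting limit. The number of cathepsin genes called for fatty acid before LPS, 5, was 3 without the filter, 2 on only the 6 libraries compared and 3 to 5 with one library left out. For TAK242 against LPS alone it was 1, and it was 0 without the filter, at a minimum value of 5 and on only the 6 libraries, and 0 to 2 with one library left out. For Western diet against chow it was 1, and it was 0 without the filter and 0 to 5 with one library left out. For the Western diet libraries by LPS label it was 1, and it was 2 with median-ratio scaling, 0 on the 6 libraries, 1 to 5 with one library left out and 6, all higher, without the 4 libraries at odds with Ccl5, an alternative chosen after seeing the data. That fit compares single libraries and does not test the conditions.

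Counts over all genes also moved. They rest on different numbers of genes tested, 10476 and 10331 in the 2 tables, 6809 and 6760 at a minimum value of 5, and 25319 and 24017 without the filter. At a minimum value of 5, the 6463 genes called for LPS became 4303, which is 63.2% of those tested against 61.7%. The 491 called for TAK242 against fatty acid then LPS became 770 with median-ratio scaling, 276 without the filter, 1110 on only the 6 libraries and 63 to 305 with one library left out. The 617 called for TAK242 against LPS alone became 1011, 88, 2 and 1 to 1784 (the last without LPS replicate 3). The 24 called for Western diet against chow became 41 without the filter, 12 at a minimum value of 5 and 8 to 5838 with one library left out (the last without replicate 2 labelled without LPS). The 99 called by LPS label became 206 with median-ratio scaling, 58 at a minimum value of 5, 2 on only the 6 libraries, 18 to 4086 with one library left out (the last without the same replicate 2) and 3301 without the 4 libraries.

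Most sign changes were of small log2 values. With median-ratio scaling they were Ctsk 0.20 and Ctsl 0.10 for LPS, Ctsl 0.00124 for fatty acid then LPS against untreated cells, Ctsd -0.00580 for TAK242 against LPS alone, and Ctsh -0.11 and Ctsl -0.0303 by LPS label. With one library left out the ranges that crossed 0 were, for LPS, -0.26 to 0.0178 (Ctsk) and -0.10 to 0.25 (Ctss). For fatty acid before LPS they were -0.0305 to 0.14 (Ctsd), -0.0178 to 0.25 (Ctse) and -0.17 to 0.0839 (Ctsl). For TAK242 they were -0.0566 to 0.0210 (Ctsd) and -0.0893 to 0.0331 (Ctsk), and against LPS alone -0.0355 to 0.14 (Ctsd). By LPS label Ctsh ranged from -0.23 to 0.34. Without the 4 libraries Ctss was -0.28 against chow, and by LPS label Ctsc was 1.24, Ctss 1.14 and Ctsl -0.17. The cause of these differences was not tested.

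A replicate block changed no call of a cathepsin gene in the fatty acid table, where LPS gave 7 called genes, fatty acid before LPS 5 and TAK242 0. In the Western diet table the replicate block on the 6 libraries left 0 genes called, and Ctse (4.38) had a limma adjusted p of 0.215. No paired analysis was possible because the groups share no replicate numbers for Western diet against chow. The replicate numbers are shared between groups only as numbers.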

Other observations

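Untreated macrophages of chow donors were in both tables, and their deposited cathepsin values differed. Ctsd was 7636 ± 47.2 in the fatty acid table and 2641 ± 133.2 in the Western diet table (SD, n = 3 each). Ctsc was 67.4 ± 0.705 and 209 ± 19.4, and Ctsk was 3.62 ± 0.339 and 0.240 ± 0.0794. Together the 10 genes took 3.91% ± 0.0442 and 1.66% ± 0.0873 of the library sum. The tables may have been normalized separately, and the difference was not tested.

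Gm49369, the gene that shares exons with Ctsd, was the entry with the highest value in replicates 1 and 2 labelled Western diet with LPS, at 5.58% and 5.22% of their library sums.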
